A study of Mus musculus with 6 samples.

Results

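The nuclear lamina and inner nuclear membrane were examined through 9 genes, Lmna, Lmnb1, Lmnb2, Lbr, Emd, Tmpo, Sun1, Sun2 and Banf1, chosen by name from the 23079 genes of the count table. All 9 had a row and all 9 passed the filter on low counts. They were compared between 3 control and 3 Satb1 knockdown libraries of mouse midbrain dopaminergic neurons. The mice were C57BL/6, 4 months old, and carried Dat bacTRAP, a transgene that tags ribosomes in cells with an active dopamine transporter gene. In both groups an AAV1 vector carried EGFP and a hairpin RNA. The knockdown hairpin was directed against Satb1, which encodes a chromatin organiser, and the control hairpin was scrambled. The labels call the libraries total RNA of dopaminergic neurons and mention 3 mice in all. They do not assign libraries to mice or state a capture of tagged ribosomes, so each p-value reflects the spread among these 6 libraries alone, which may be technical.

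The lamina is a mesh of A-type lamins (lamin A and lamin C, both from Lmna) and B-type lamins (from Lmnb1 and Lmnb2) beneath the inner nuclear membrane. Membrane proteins hold it in place and bind chromatin: LBR holds B-type lamins and heterochromatin protein HP1, emerin and the LAP2 proteins bind the DNA-bridging protein BAF through a LEM domain, and SUN proteins connect the lamina to the cytoskeleton. Loss of lamin B1 is widely used as a mark of senescent cells, and neurons of the adult brain are known for a low level of lamin A relative to lamin C.

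Libraries held 147486754 to 170351145 counts, so that 1 count was worth 0.00557 to 0.00672 CPM (the standard unit for a gene's counts relative to the library total, here scaled with trimmed-mean factors, TMM). Satb1 was between 319.8 and 351.4 CPM in controls and at 82.9, 166.4 and 61.2 CPM in knockdown libraries 1 to 3, and the log2 fold change was -1.72 ± 0.26 (SE; edgeR adjusted p = 0.00106). Of 10 dopamine neuron markers, edgeR called 6 lower and none higher, where 12.6% and 8.48% of all tested genes were. None rose at an unadjusted p under 0.05, in DESeq2 or in limma-voom. When libraries were scaled by total counts, 5 were lower and 1 higher, against 5.80% and 16.5% of all tested genes. The higher one was Nr4a2 (log2 fold change 0.42, edgeR adjusted p = 0.0204). The summed level of the 10 markers was 12500 to 13780 CPM in controls and 8449 to 10650 CPM in the knockdown. With TMM factors, oligodendrocyte markers rose in 8 of 10 cases, where 8.48% of all tested genes did. Their sum was 393.8 to 450.4 CPM in controls and 611.4 to 689.2 CPM in the knockdown. Of 10 genes in each list, 2 astrocyte, 2 microglia and 1 endothelial marker rose and 1, 1 and none fell. Of all tested genes 8.48% rose and 12.6% fell by the same test. No endothelial marker was lower at an unadjusted p under 0.05 or by the other tools. In controls and knockdown, respectively, the sums were 249.8 to 295.4 and 217.9 to 236.6 CPM for astrocytes, 24.1 to 25.6 and 23.7 to 30.7 CPM for microglia, and 18.1 to 20.8 and 22.1 to 24.9 CPM for endothelium. Most of the astrocyte sum was Slc1a2, the astrocyte marker that fell (means 244.7 and 176.7 CPM). The median log2 fold change of the astrocyte list was 0.575. Most of the microglia sum in controls was P2ry12, the microglia marker that fell (means 18.85 and 13.77 CPM), where the list median was 1.09. Of the 50 markers, 0 were at 0 in all libraries. In such bulk libraries fewer cells of a type and less RNA per cell cannot be told apart, and the part of these shifts in the results on the envelope was not tested.

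Tmpo and Sun2 rose in the knockdown, each by about the same factor, and the other 7 genes did not pass the test. The lamin genes were among those 7, Lmnb1 included. The 2 genes that rose were 2 of 9, where 8.48% of all 16766 tested genes were called higher. No member was called lower, where 12.6% of all tested genes were. edgeR put no member lower at an unadjusted p under 0.05, and DESeq2 and limma-voom also called 2 higher and 0 lower. The median log2 fold change was 0.07 over the 9 genes and 0.01 over all genes tested. All 3 knockdown libraries lay above all 3 controls for the same 2 genes, Tmpo and Sun2, against 17.9% of all tested genes, and for no member did they lie below, against 20.8%.

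For Tmpo and Sun2, the members called higher, the 250 bases before a RefSeq start site of each are shown. They are compared with those of Sun1, the paralogue of Sun2 that did not pass the test. Sequences are from GRCm38.p6 and read 5′ to 3′ on the minus strand, that of both genes. Capitals mark the CCAAT box (CCAAT) and the GC box (GGGCGG) on either strand, including overlaps of one with the other. The windows are chr10:91171620-91171869 for Tmpo, chr15:79742537-79742786 for Sun2 and chr5:139200387-139200636, on the plus strand, for Sun1. That of Tmpo lies inside the RefSeq gene span, before an internal start, and that of Sun1 runs into the first bases of its RefSeq span.
Tmpo: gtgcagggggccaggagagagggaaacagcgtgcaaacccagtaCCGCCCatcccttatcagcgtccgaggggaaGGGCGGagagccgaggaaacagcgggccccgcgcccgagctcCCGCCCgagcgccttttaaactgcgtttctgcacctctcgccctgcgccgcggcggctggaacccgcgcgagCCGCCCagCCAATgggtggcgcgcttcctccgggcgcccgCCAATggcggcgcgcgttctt
Sun2: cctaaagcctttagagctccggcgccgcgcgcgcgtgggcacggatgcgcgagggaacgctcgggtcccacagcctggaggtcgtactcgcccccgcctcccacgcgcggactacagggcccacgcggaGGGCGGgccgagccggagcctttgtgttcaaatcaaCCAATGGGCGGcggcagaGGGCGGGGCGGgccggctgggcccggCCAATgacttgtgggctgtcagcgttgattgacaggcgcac
The windows of Tmpo and Sun2 each held 2 CCAAT boxes and 4 GC boxes, and that of Sun1 held 2 and 3. Among the other members, none of them called, Lbr had 2 and 1 and Emd 1 and 1. The windows of Banf1 had 1 and 1, and 0 and 3. Those of Lmna had 0 and 1, and 1 and 0, and those of Lmnb2 had 0 and 1, and 0 and 0. A CCAAT box was present in 34.5% and a GC box in 32.9% of 27025 windows of the same length, 1 per gene. G and C made up 70.8% of the bases in the windows of Tmpo and of Sun2 and 70.0% in that of Sun1, where the median of all genes was 52.0%. In the windows of those other members the share ran from 51.2% (Emd) to 77.2% (Banf1), with 69.6% for Lbr. The longest run of A and T was 7 bases for Tmpo, 4 for Sun2 and 5 for Sun1, with a median of 7 over all genes. None of these 3 windows held a TATA box (TATAAA) or an E box (CACGTG) on either strand, where 13% and 6.05% of all windows did. Neither E2F motif (TTTCGCGC) nor its variant (TTTGGCGC) was present in them, where 0.255% and 0.437% of all windows had a match. The windows used here include 1 further start each for Tmpo and Sun1. The window before that of Tmpo (chr10:91170551-91170800) held neither a CCAAT nor a GC box, and the window before that of Sun1 (chr5:139214908-139215157) held 1 CCAAT box, 1 TATA box and no GC box. The 5′ ends of the RefSeq spans, at 91181752 for Tmpo and 139200564 for Sun1, had no window of their own. The window of Sun2 also holds an exon of Gm16576 on the opposite strand. These are matches of letters, and the counts do not measure binding there.

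Tmpo encodes the LAP2 family, of which the membrane-bound forms hold B-type lamins and the soluble form LAP2-alpha binds A-type lamins in the nuclear interior. Controls 1 to 3 gave 18.5, 24.3 and 19.995 CPM, whereas knockdown libraries 1 to 3 gave 28.2, 27.7 and 32.9 CPM. Every knockdown library was above every control library. The group means were 20.9 ± 3.01 and 29.6 ± 2.88 CPM (SD, n = 3 each). This was a 1.41-fold rise, or 0.50 ± 0.13 on the log2 scale (SE; edgeR adjusted p = 0.0183). Gene counts do not separate the LAP2 forms. The call was lost without control library 1 (adjusted p = 0.0754), control library 3 (0.0619) or knockdown library 3 (0.0545). In all of these the log2 fold change stayed at 0.42 or above.

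Sun2 encodes a SUN protein of the inner membrane, which pairs with KASH proteins of the outer membrane in the LINC complex. Control libraries 1 to 3 had 12.5, 12.7 and 17.3 CPM, and knockdown libraries 1 to 3 had 20.6, 17.3 and 23.2 CPM. The groups met closely, since control library 3 (17.258 CPM) was just below knockdown library 2 (17.316 CPM). The group means were 14.2 ± 2.69 and 20.4 ± 2.94 CPM (SD, n = 3 each), a 1.44-fold rise, or 0.52 ± 0.16 on the log2 scale (SE; edgeR adjusted p = 0.0346). Leaving out control 1 (adjusted p = 0.119) or control 2 (0.128) ended the call, and so did leaving out knockdown library 1 (0.0875) or 3 (0.106). Without control library 1 or without knockdown library 3, neither Sun2 nor Tmpo was called.

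Sun1, the other widely expressed SUN gene, had 12.2, 14.8 and 11.3 CPM in the controls and 9.02, 10.8 and 12.8 CPM in the knockdown. The groups overlapped, and the log2 fold change was -0.23 (95% interval -0.60 to 0.13; edgeR adjusted p = 0.362), and -0.11 without control library 2 or without knockdown library 1. The ratio of Sun2 to Sun1 counts within a library does not depend on scaling. As a log2 ratio it was 0.04, -0.23 and 0.61 in the controls, and 1.19, 0.68 and 0.86 in the knockdown. All knockdown ratios were above all control ratios, with a mean difference of 0.77. The exact permutation test gave p = 0.1, the smallest that 3 against 3 libraries allow (two-sided), and 0.4 after Benjamini-Hochberg adjustment over 6 within-library quantities. This ratio was chosen after its values were seen.

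**Figure D1:**
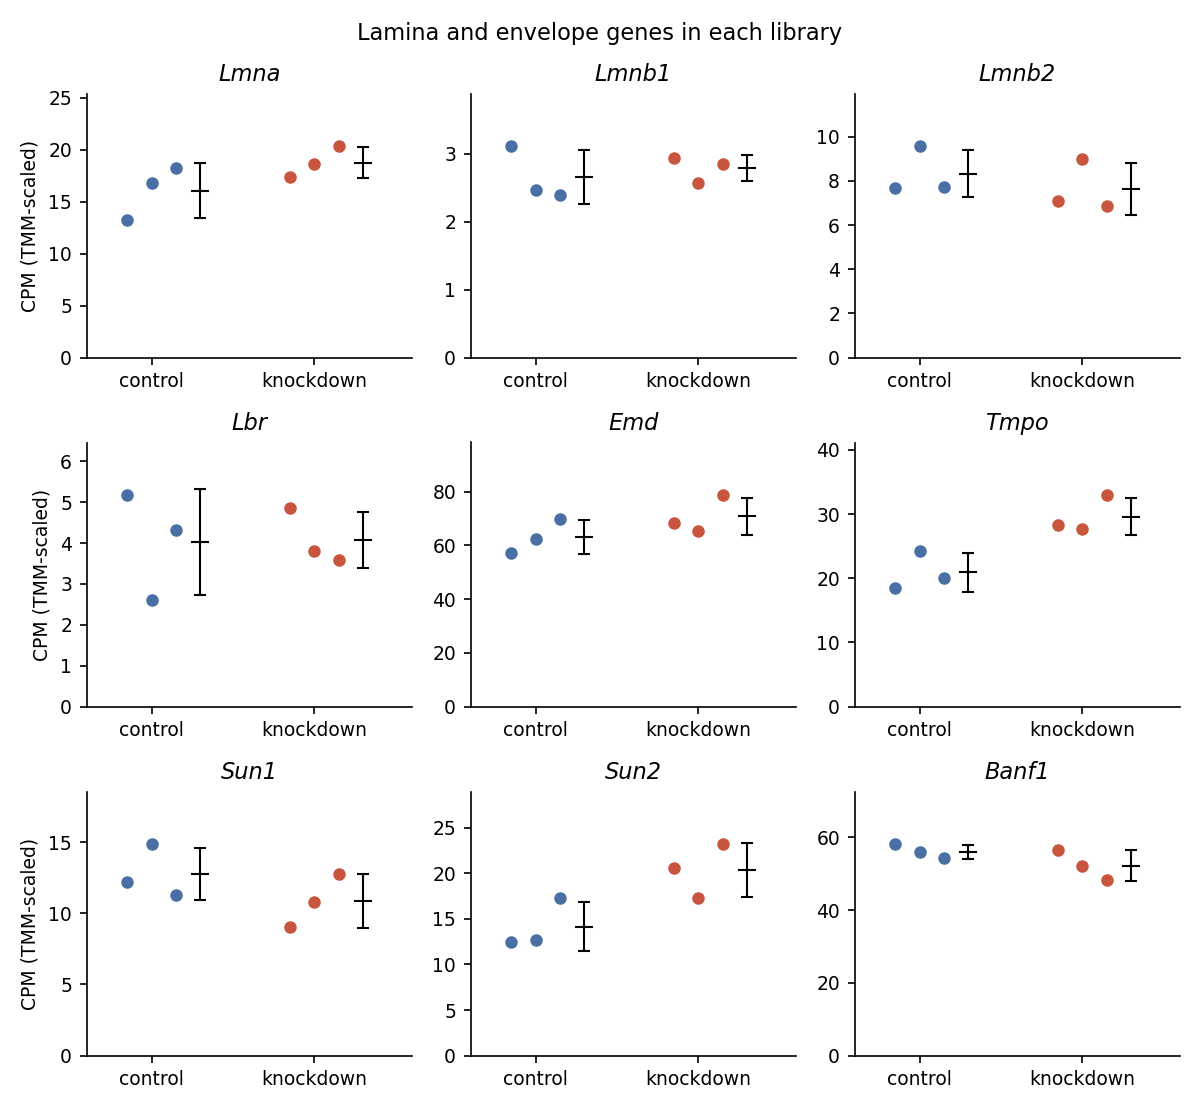
Level of each gene in TMM-scaled CPM, with 1 point per library, for 3 control (blue) and 3 knockdown (red) libraries; bars are the mean and SD. The groups are separate for Tmpo and, narrowly, for Sun2, and overlap for the other 7 genes.

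None of the 3 lamin genes passed the test. Lmna had 13.2, 16.7 and 18.3 CPM in the controls and 17.3, 18.6 and 20.3 CPM in the knockdown, and its mean was 16.1 ± 2.60 and 18.8 ± 1.49 CPM (SD, n = 3 each). Knockdown library 1 was below control library 3, so the groups overlapped. The log2 fold change was 0.22 (95% interval -0.09 to 0.53; edgeR adjusted p = 0.305), and 0.10 without control library 1.

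Lmnb1, the lamin B1 gene, was the lowest of the 9 genes in CPM, with 505, 380 and 355 counts in the controls and 527, 395 and 453 in the knockdown. In CPM these were 3.11, 2.47 and 2.39 against 2.94, 2.57 and 2.85. Every knockdown library lay inside the range of the controls. The log2 fold change was 0.07, with a 95% interval of -0.49 to 0.62 (edgeR adjusted p = 0.887). The interval holds changes in either direction, and its lower end is a loss of about the size by which Tmpo rose. Without control library 3 the value was 0.00, and without control library 1 it was 0.20.

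Lmnb2, which encodes lamin B2, had 7.67, 9.57 and 7.75 CPM in the controls and 7.08, 8.97 and 6.86 CPM in the knockdown, with overlapping groups. Its log2 fold change was -0.12 (95% interval -0.51 to 0.26; edgeR adjusted p = 0.676) with TMM factors and 0.04 with total-count scaling.

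Per length of annotated exons, Lmna was the most abundant lamin transcript. It made up 56.5%, 60.3% and 66.0% of lamin transcripts per length in the controls, and 64.7%, 63.6% and 68.9% in the knockdown. Lmnb2 followed with 27.9%, 29.2% and 23.8% in the controls and 22.4%, 26.0% and 19.8% in the knockdown. Lmnb1 had 10.2% to 15.6% in the controls and 10.3% to 12.9% in the knockdown. The mean share of Lmna was 4.79 percentage points higher in the knockdown, with overlapping groups (exact permutation test, two-sided p = 0.3, 0.45 adjusted over the 6 quantities). That difference was 2.56 points without control library 1 and 7.35 points without control library 3. Lamin A and lamin C mRNAs are not separated by these counts.

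The log2 ratio of Lmnb1 to Lmna counts was -2.09, -2.76 and -2.94 in the controls and -2.56, -2.86 and -2.84 in the knockdown, so all knockdown values lay inside the control range. Its mean differed by -0.16 (exact permutation p = 0.8, two-sided; 0.9 adjusted). The sign of that difference rested on control library 1, without which it was 0.0979. For Lmnb2 to Lmna the difference was -0.36 with p = 0.2 in the same exact test (0.4 adjusted), in a ratio taken up after the values were seen.

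**Figure D2:**
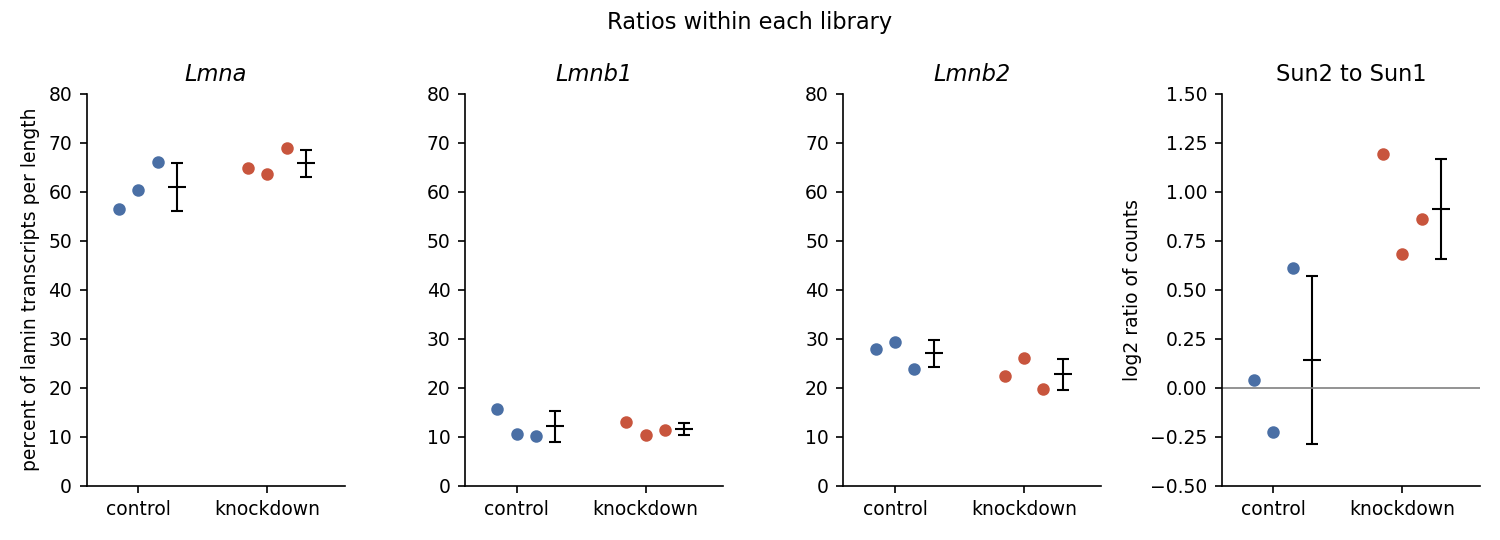
Share of each lamin gene among lamin transcripts per length, in percent, and the log2 ratio of Sun2 to Sun1 counts, with 1 point per library (blue, control; red, knockdown) and the mean and SD. The lamin shares overlap between groups, and the 3 knockdown ratios of Sun2 to Sun1, from 0.68 to 1.19, lie above the 3 control ratios.

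The remaining membrane proteins and BAF did not pass the test. Emd encodes emerin, a LEM-domain protein that binds lamin A and BAF, and had 57.1, 62.3 and 69.9 CPM in the controls and 68.4, 65.4 and 78.6 CPM in the knockdown. The log2 fold change was 0.17 (95% interval -0.07 to 0.41; edgeR adjusted p = 0.323), and 0.10 without control library 1 or without knockdown library 3. Banf1, which encodes BAF, had 58.0, 55.9 and 54.2 CPM against 56.4, 52.2 and 48.1 CPM, with a log2 fold change of -0.10 (95% interval -0.32 to 0.12) that became 0.07 with total-count scaling. Both groups overlapped for each of these genes.

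Lbr encodes the lamin B receptor, which also has sterol reductase activity, and was the most variable member among the controls. Its control counts were 840, 402 and 642, or 5.17, 2.61 and 4.32 CPM, an SD of 32.3% of the mean. In the knockdown it had 4.86, 3.80 and 3.59 CPM, all within the control range. The log2 fold change was 0.02 (95% interval -0.57 to 0.60), -0.22 without control library 2 and -0.12 without knockdown library 1. For the other 8 members the control SD was between 3.45% (Banf1) and 19% (Sun2) of the mean.

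Scaling bears on these values. With total counts in place of TMM factors the median over all 16766 genes shifted on the log2 scale from 0.01 to 0.18 and that over the 9 genes from 0.07 to 0.24. Emd was then called as well (log2 fold change 0.34; edgeR adjusted p = 0.0399), next to Tmpo (0.67) and Sun2 (0.70), so that 3 of 9 were higher and none lower, where 16.5% of all tested genes were higher and 5.80% lower. Relative to the shift of all genes, the order of the 9 genes by log2 fold change was the same at both ends, with Sun2 and Tmpo highest and Sun1 lowest.

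**Figure D3:**
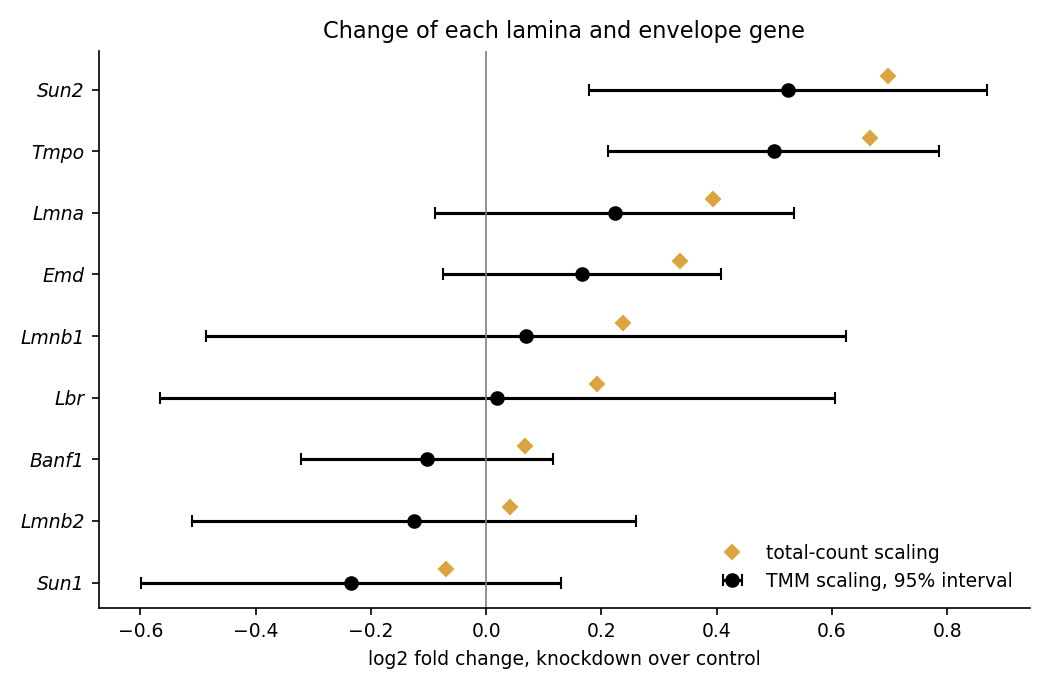
Log2 fold change of each gene, knockdown over control, from edgeR with TMM factors (black, with 95% intervals) and with total-count scaling (yellow diamonds). The intervals of Sun2 and Tmpo lie above 0, and those of the other 7 genes include 0.

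By level per kilobase of exon, the members fell into separate tiers. In the controls Banf1 stood at 37.5 ± 1.29 and Emd at 26.7 ± 2.71 CPM per kilobase (SD, n = 3), followed by Lmna at 4.80, Sun2 at 3.72, Tmpo at 3.23, Sun1 at 2.56, Lmnb2 at 2.11, Lbr at 1.15 and Lmnb1 at 0.933. Ranges over the libraries were separate between Banf1 and Emd, between Emd and Lmna, and between Lmnb2 and Lbr. From Lmna down to Lmnb2 each gene overlapped its neighbour, as Lbr and Lmnb1 did. In the knockdown the order was the same, but the ranges of Banf1 (32.2 to 37.7) and Emd (27.7 to 33.3) then overlapped, and those of Tmpo (4.27 to 5.08) and Sun1 (1.81 to 2.56) no longer did. Lengths were of exons of coding GENCODE transcripts, 1496 bases for Banf1 and 6478 for Tmpo at the extremes, and forms in use were not measured.

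Some of these genes share exon sequence with another gene in GRCm38. Of the exons of Banf1, 428 bases overlap Eif1ad on the opposite strand, which was at 44.2 and 39.3 CPM in the 2 groups. For Lbr 440 bases overlap Dnah14, for Tmpo 244 bases overlap Gm26765 and for Sun2 136 bases overlap Gm16575, each on the opposite strand. For Emd 343 bases overlap the pseudogene Gm14686 on the same strand. If strand was not used in counting, reads from these pairs cannot be told apart. The exons of Lmna, Lmnb1, Lmnb2 and Sun1 overlap no other gene. The genes that rose lie on chromosome 10 from 91147571 to 91181752 (Tmpo, gene identifier 21917, minus strand) and on chromosome 15 from 79724068 to 79742536 (Sun2, gene identifier 223697, minus strand).

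Across the 6 libraries, the 3 genes with the pattern most like that of Tmpo, by Pearson correlation of log2 CPM among 9470 genes averaging 10 CPM or more, were Slc7a3, a cationic amino acid transporter gene (r = 0.998), Grhpr (0.997) and Tox (0.993). For Sun1, the member with the smallest p among those with a negative value, they were Tsen15 (r = 0.988), Tbc1d17 (0.962) and Map3k5 (0.952). Among the members themselves the highest correlations were between Emd and Sun2 (0.91) and Emd and Lmna (0.90), and Tmpo and Sun2 had 0.75. These describe 6 libraries that share group, depth and composition. Relative to the control mean, Tmpo was 0.44, 0.41 and 0.66 higher on the log2 scale in knockdown libraries 1 to 3 and Sun2 0.56, 0.31 and 0.73 higher. Knockdown library 2, which kept the most Satb1, had the smallest value for both. A link of these values with the Satb1 level or with the mix of cells was not tested.

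Of 6 genes for enzymes of the lamin tail and for the prelamin A binding factor NARF, Fntb fell, Zmpste24 rose and 4 were not called. Over all tested genes 12.6% were called lower and 8.48% higher, and single calls among 6 genes do not set this list apart. Fntb encodes the beta subunit of farnesyltransferase, which attaches the lipid to prelamin A and B-type lamins. It went from 22.7, 26.5 and 24.1 CPM in the controls to 14.8, 19.5 and 16.4 CPM in the knockdown, with no overlap and a log2 fold change of -0.53 ± 0.13 (SE; edgeR adjusted p = 0.0139). Zmpste24, the protease that cleaves prelamin A, went from 26.6, 26.4 and 30.1 CPM to 44.0, 31.2 and 40.3 CPM, also without overlap (0.48 ± 0.13; adjusted p = 0.0247). The call for Fntb was lost when totals were used for scaling (adjusted p = 0.0614), when control 2 was left out (0.0648) and when knockdown library 1 was (0.0776). That for Zmpste24 was lost without control 1 (0.0803) or 2 (0.0938), and without knockdown library 1 (0.112) or 3 (0.0533).

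With TMM factors, other SUN genes and their KASH partners did not pass the test. edgeR called 0 of 6 tested SUN and KASH genes beyond Sun1 and Sun2, where 8.48% of all tested genes were higher and 12.6% lower. At an unadjusted p under 0.05, 1 was lower, and DESeq2 and limma-voom called none. The smallest p-values belonged to the SUN genes Spag4 (log2 fold change -0.89, edgeR adjusted p = 0.0907) and Sun3, at 0.140 and 0.377 CPM. With total-count scaling 1 gene was higher, where 16.5% of all tested genes were. It was the KASH gene Syne1 (log2 fold change 0.38, edgeR adjusted p = 0.0478), named after its values were seen. Of the 8 genes in that list, Sun5 had no counts and Lrmp did not pass the filter on low counts. Among other inner membrane proteins and BAF regulators, 3 of 18 tested genes rose and 3 fell, where 8.48% and 12.6% of all tested genes did. Mlip, listed as 2310046A06Rik, encodes a lamin-interacting protein first described in muscle and rose from 1.52 ± 0.38 to 3.93 ± 0.24 CPM (SD, n = 3 each; log2 fold change 1.37). The LEM-domain gene Lemd2 rose from 4.93 to 8.01 CPM (0.70). Vrk1, a kinase that releases BAF from DNA, fell from 18.1 to 11.9 CPM (-0.61), and Tmem38a fell from 95.5 to 72.8 CPM (-0.39). The other calls, named after their values were seen, were the torsin gene Tor1a (-0.57) and Tor1aip1 (0.38), which encodes the torsin activator LAP1.

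Calls in this list were not equally firm. That for 2310046A06Rik held under all 14 alternative settings and left-out libraries. Lemd2 was not called when control 1, control 3 or knockdown library 1 was left out, and Vrk1 was not called when control 2 or knockdown library 1 was. Tmem38a was not called without knockdown library 1. Without single libraries the calls for Tor1a and Tor1aip1 were each lost in 5 cases, and kept only without knockdown library 2 for the former and without knockdown library 3 for the latter, which was also lost with no filter on low counts. With total-count scaling the calls for Tmem38a and Tor1a were also lost. In that setting 6 genes of the list were higher and 1 lower, where 16.5% and 5.80% of all tested genes were.

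Among 12 genes for chromatin proteins that bind LBR, LAP2 or the heterochromatin at the lamina, 2 were lower, a share near the 12.6% of all tested genes, and none was higher, against 8.48%. edgeR put none higher and 5 lower at an unadjusted p under 0.05, a threshold for which no share of all genes is given. DESeq2 and limma-voom put none higher and 3 lower. All knockdown libraries lay below all controls for 4 genes of the list, against 20.8% of all tested genes. Suv39h1, which methylates histone H3 at lysine 9 and so makes the mark that HP1 reads, had 30.3, 24.1 and 28.0 CPM in the controls and 14.4, 15.1 and 15.2 CPM in the knockdown. Every knockdown library was well below every control, and the log2 fold change was -0.88 ± 0.12 (SE; edgeR adjusted p = 0.000664). The call for Suv39h1 held under all 14 alternatives. Ehmt2, another lysine 9 methyltransferase gene, went from 35.9 ± 4.75 to 25.2 ± 3.10 CPM (-0.51), a call that ended with total-count scaling, or when control 3 or knockdown library 1 was left out. The HP1 genes Cbx5 (-0.18), Cbx3 (0.01) and Cbx1 (0.00) did not pass, nor did Hdac3 (-0.33; adjusted p = 0.0589). These 4 were named after their values were seen. The median of the list was -0.26 with TMM factors and -0.09 with total-count scaling, beside 0.01 and 0.18 for all genes.

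Of 11 genes of the ESCRT machinery that seals the nuclear envelope, among its other membranes, 4 fell and none rose, also in DESeq2 and limma-voom, and none was higher at an unadjusted p under 0.05. Of all tested genes 12.6% were lower and 8.48% higher. With total-count scaling 2 of the 11 were lower and 1 higher, where 5.80% and 16.5% of all tested genes were. Chmp2b fell from 132.8, 121.7 and 110.3 CPM to 72.9, 77.2 and 69.9 CPM (log2 fold change -0.73 ± 0.10, SE; edgeR adjusted p = 0.000592). Vps4a, the ATPase that takes ESCRT filaments apart, fell from 125.5 ± 6.94 to 89.2 ± 9.43 CPM (-0.49). Both calls held under all 14 alternatives. Those for Spast (-0.38) and Chmp4b (-0.36) were lost with total-count scaling, Spast's also when control 1, control 2 or knockdown library 3 was left out, and Chmp4b's with relative log expression factors, with a filter at 1 CPM and without any single library other than knockdown library 2. Chmp7, the ESCRT protein that LEM2 recruits, was the gene called higher with total-count scaling (log2 fold change 0.31; edgeR adjusted p = 0.0294). With TMM factors it was at 0.14 and did not pass, although all knockdown libraries (88.1 to 91.9 CPM) were above all controls (79.8 to 85.6 CPM). Chmp7 was named after its values were seen.

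Of 31 nuclear pore genes 3 were higher and 3 lower, close to the 8.48% and 12.6% of all tested genes. With total-count scaling 4 were higher and none lower, against 16.5% and 5.80%; with TMM factors edgeR put 3 higher and 3 lower at an unadjusted p under 0.05, as DESeq2 and limma-voom did by adjusted p. Nup62, a central channel nucleoporin, had 39.0, 36.9 and 43.5 CPM in the controls and 65.1, 62.5 and 71.4 CPM in the knockdown, with a log2 fold change of 0.74 ± 0.11 (SE; edgeR adjusted p = 0.000738). Gle1, a factor of mRNA export at the pore, rose from 25.6 ± 3.89 to 39.4 ± 2.96 CPM (0.62), and Nup153, a basket nucleoporin that contacts the lamina, from 26.7 ± 1.99 to 37.7 ± 4.54 CPM (0.50). These 3 were called higher under all 14 alternatives. Seh1l of the outer ring fell from 43.7 to 33.8 CPM (-0.37). The other lower genes were the basket gene Tpr (-0.44) and the inner ring gene Nup205 (-0.49), both named after their values were seen. None of the 3 lower genes was called with total-count scaling or when control 3, knockdown library 1 or knockdown library 2 was left out, and with relative log expression factors 1 was.

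**Figure D4:**
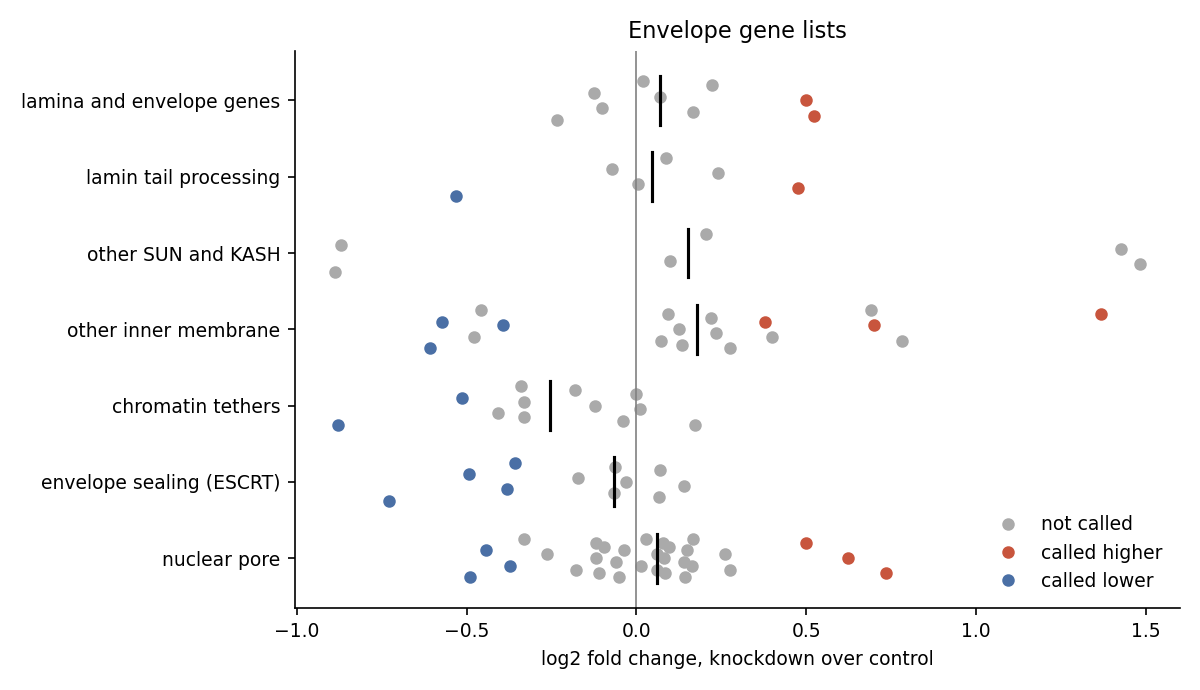
Log2 fold change of each tested gene in the 9 lamina and envelope genes and 6 further lists of envelope genes, with TMM factors; black lines are medians, and red and blue points are genes called higher and lower by edgeR. Calls lie on both sides of 0 in the lists of lamin tail processing, other inner membrane and nuclear pore genes, and on the lower side alone in those of chromatin tethers and envelope sealing.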

How the data were processed

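Raw gene counts, as deposited, fill 1 column for each library. Per the submitters' processing notes, TopHat2 2.0.8 and mm10 were used. How reads were counted (tool, annotation, strand, reads with several alignments) is not given in the sources used here. Groups and numbers came from the sample titles. Gene identifiers are NCBI numbers. Gene spans, synonyms and windows before start sites came from RefSeq (GRCm38.p6), and exon lengths and overlaps from GENCODE M21, on the same build as mm10. Windows of 8 of the 9 genes were used, with Lmnb1 left out, and the sequences of 2 are printed.

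The members and lists were chosen with earlier results of these data known. Groups were compared with edgeR 4.0.16 (glmQLFit and glmQLFTest; R 4.3.3) over 16766 genes (filterByExpr, minimum count 10, minimum total 15), with TMM factors, Benjamini-Hochberg adjustment over all of them and a threshold of 0.05. Standard errors were derived from F, and intervals (95%) from its degrees of freedom. DESeq2 1.42.0 and limma-voom (limma 3.58.1) were alternatives. Log2 CPM for correlations used a prior count of 2. The edgeR script was tested on simulated data. Named genes were Satb1, the 9 members, in each further list up to 4 called genes taken by p-value (2 genes where none was called), and the 3 genes most like the member with the smallest p in each direction. Replicates differed by far more than counting noise (chi-square per gene of at least 58.5), so none was a copy of another.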

Additional observations from a re-analysis of the deposited data

How the results depend on the processing

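Calls depended more on single libraries than on the tool. The members called higher were 2 under the other settings with all libraries, 3 with total-count scaling, and between 0 and 2 with 1 library left out, while none was lower under any setting run. The median log2 fold change of the members was 0.24 with total-count scaling, 0.115 with a filter at 1 CPM, and between 0.019 and 0.126 with 1 library left out. With total-count scaling Lmnb2 (0.041) and Banf1 (0.068) changed sign. Leaving out single libraries gave -0.002 to 0.196 for Lmnb1, -0.22 to 0.24 for Lbr and -0.326 to 0.0979 for the log2 ratio of Lmnb1 to Lmna. Among all genes 2770 were higher and 972 lower with total-count scaling, against 1421 and 2115, and with 1 library left out there were 804 to 1356 higher and 1132 to 2054 lower. DESeq2 called 2010 of all genes higher and 2376 lower, and limma-voom 1462 and 2208. The percentages of all tested genes printed beside the lists are from edgeR. The 5 further lists without the nuclear pore had 4 higher and 10 lower genes, 9 and 4 with total-count scaling, and 1 to 3 and 4 to 13 with 1 library left out. The lower nuclear pore genes were 3, 1 with relative log expression factors, 0 with total-count scaling and 0 to 2 with 1 library left out. The cause of these differences was not tested.

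Libraries of the 2 groups share replicate numbers, and same-numbered libraries deviated together only weakly (r = 0.056, 0.013 and 0.108). Each control library and knockdown libraries 1 and 3 correlated best with their own number in the other group, and knockdown library 2 did not. The numbers appear only in the titles and were not taken as pairs. Whether they mark pairs cannot be told from these values. With the replicate number as a block, 1924 genes were higher and 2789 lower, and the same members were called (Tmpo, adjusted p = 0.00896; Sun2, 0.00696). The lowest count of any member in any library was 355, for Lmnb1.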
